A study of Mus musculus with 6 samples.

Results

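The genes described here are 10 antioxidant and redox genes of the embryonic mouse heart, Sod1, Sod2, Cat, Gpx1, Gpx4, Prdx1, Prdx3, Txnrd1, Gclc and Nfe2l2, chosen by symbol as enzymes and a regulator that deal with reactive oxygen. All 10 were among the 13843 genes of the deposited table. Their levels were compared between ventricles of single embryos with and without the von Hippel-Lindau gene Vhl, whose protein tags the hypoxia-inducible factors (HIF) so that cells with enough oxygen destroy them. The question was whether an oxidative stress response goes with the metabolic switch of hearts that lack Vhl. Knockouts 1 to 3 were labelled Vhl(flox/flox) / Nkx2.5(Cre/+), with both Vhl alleles floxed and Cre recombinase on 1 allele of the cardiac transcription factor gene Nkx2-5, so that deletion is driven in heart muscle progenitors. Controls 1 to 3 were labelled Vhl(flox/flox) / Nkx2.5(+/+) and carried the same floxed alleles without Cre. All embryos were at stage E12.5 on a C57BL/6 background, with no treatment in the labels, and each library came from the ventricles of 1 embryo after removal of atria and valves. Embryos with the Cre allele but functional Vhl were not analysed here, so loss of Vhl, the Cre allele and the loss of 1 Nkx2-5 copy cannot be told apart.

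Superoxide, made mainly by the respiratory chain, is turned into hydrogen peroxide by superoxide dismutases. Catalase, glutathione peroxidases and peroxiredoxins remove the peroxide, and the glutathione and thioredoxin systems bring the peroxidases back to their reduced state with electrons from NADPH. The transcription factor NRF2, encoded by Nfe2l2, is held low by KEAP1 in unstressed cells and, under oxidative stress, switches on many of these genes through antioxidant response elements (ARE). HIF acts through hypoxia response elements (HRE) on another set of genes.

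The RefSeq promoter table (GRCm38.p6, the bases just before and after each transcription start) held 9 of the 10 genes, all but Gclc, with 14 start sites. The ARE core TGACNNNGC, searched on both strands, was in 4 of these 14 promoters, those of Sod1, Prdx1, Txnrd1 (1 of its starts) and Nfe2l2, and in 12.4% of all 32851 promoters. These stretches are shown because NRF2 binds this kind of element, and capitals mark the match, which in the first 3 lies on the other strand and is printed as its reverse complement. They lie at chr16:90220680-90220740 (plus strand), chr4:116685440-116685500 (plus), chr10:82859088-82859148 (plus) and chr2:75704869-75704913 (minus), in the order given. Unlike in the first 3, the bases after the Nfe2l2 start were not found in an annotated transcript of that gene. Its stretch is shorter because it begins at the edge of the promoter sequence.
Sod1: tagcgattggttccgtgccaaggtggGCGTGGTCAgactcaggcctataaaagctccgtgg
Prdx1: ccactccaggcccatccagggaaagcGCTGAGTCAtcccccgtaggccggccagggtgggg
Txnrd1: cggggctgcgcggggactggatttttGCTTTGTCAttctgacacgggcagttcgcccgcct
Nfe2l2: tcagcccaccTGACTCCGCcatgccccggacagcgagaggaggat

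The HRE core ACGTG, on either strand, was in 1 of the 14 promoters, that of Gpx1, and in 19.6% of all promoters. For comparison, it was also in the promoter of the oxygen sensor gene Egln1 and in those of 2 relatives described further on, Prdx4 and Gpx8. Beside the 14 promoters, matches were looked up for these 3 genes only. The other redox genes that rose were not looked up, so whether such genes carry this core more often was not tested. In these 3 windows capitals mark the match, on the gene strand in Egln1 (chr8:124949292-124949348, minus) and in Prdx4 (chrX:155338481-155338537, minus), where the letters CACGTG also match on the other strand. In Gpx8 (chr13:113046529-113046585, minus) the match is on the other strand and reads CACGT. A match is a description of the letters and was not tested for binding.
Egln1: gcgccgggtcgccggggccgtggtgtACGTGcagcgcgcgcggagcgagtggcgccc
Prdx4: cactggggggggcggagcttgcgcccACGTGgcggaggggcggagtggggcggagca
Gpx8: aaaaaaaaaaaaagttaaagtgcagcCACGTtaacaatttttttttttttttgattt

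Levels are deposited normalized values, each library's reads times 1 factor, on an RPM-like scale that makes each library sum to about the same total. The 6 libraries held 9067805 to 12592902 reads. Vhl, the check of the labels, stood at 11.1 and 10.3 in knockouts 1 and 2, at 34.5 in the library labelled knockout 3, and at 33.7, 36.3 and 38.6 in the controls. The library labelled knockout 3 thus went against its label and is kept apart from knockouts 1 and 2. For some genes that did not pass, its value is not given. Egln1, a gene that HIF induces, was at 297 and 319.7 in knockouts 1 and 2, at 112 in the library labelled knockout 3, and at 108, 111 and 109 in the controls. The 10 heart muscle markers checked were all measured, with a summed level of 30804 and 28442 in knockouts 1 and 2, at 32335 in the library labelled knockout 3 and 28863 to 35169 in the controls. The comparison below is that of knockouts 1 and 2 with the 3 controls, by limma on log2(value + 1) over all 13843 genes, with Benjamini-Hochberg adjusted p under 0.05 as the threshold. Leaving out a library for its Vhl value makes any difference that follows Vhl partly circular. Each value is that of a single embryo, so p-values rest on the variation among embryos.

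None of the 10 genes passed the threshold in either direction, while 4.25% of all genes did (3.01% higher and 1.24% lower). By limma, 2 of the 10 had an unadjusted p under 0.05, Gpx4 with higher and Sod2 with lower values in knockouts 1 and 2, and 17.8% of all genes did. With edgeR, run on the reads recovered from the values, 0 of the 10 were called and the same 2 genes had an unadjusted p under 0.05. DESeq2 on the same reads called 1, Gpx4, as higher, where 6.35% of genes with an adjusted p were called (4.25% higher and 2.1% lower). The median log2 fold change of the 10 was 0.07, against -0.01 over all genes, and their median absolute change was 0.12, against 0.13 over all genes. The largest absolute change among the 10, that of Gpx4, was exceeded by 21.6% of all genes. Values of knockouts 1 and 2 lay wholly above or below those of the controls for 4 of the 10 genes, 2 in each direction, beside 35.1% of all genes (18.1% higher and 17.0% lower). A difference that missed the threshold is not shown to be absent, and intervals are given for that reason. With all 6 libraries as labelled, 0 of the 10 genes and 0% of all genes passed by limma, with 0 of the 10 and 859 of all genes at an unadjusted p under 0.05. In that comparison edgeR also called 0 genes, and DESeq2 called 11, of which 0 were among the 10.

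**Figure D1:**
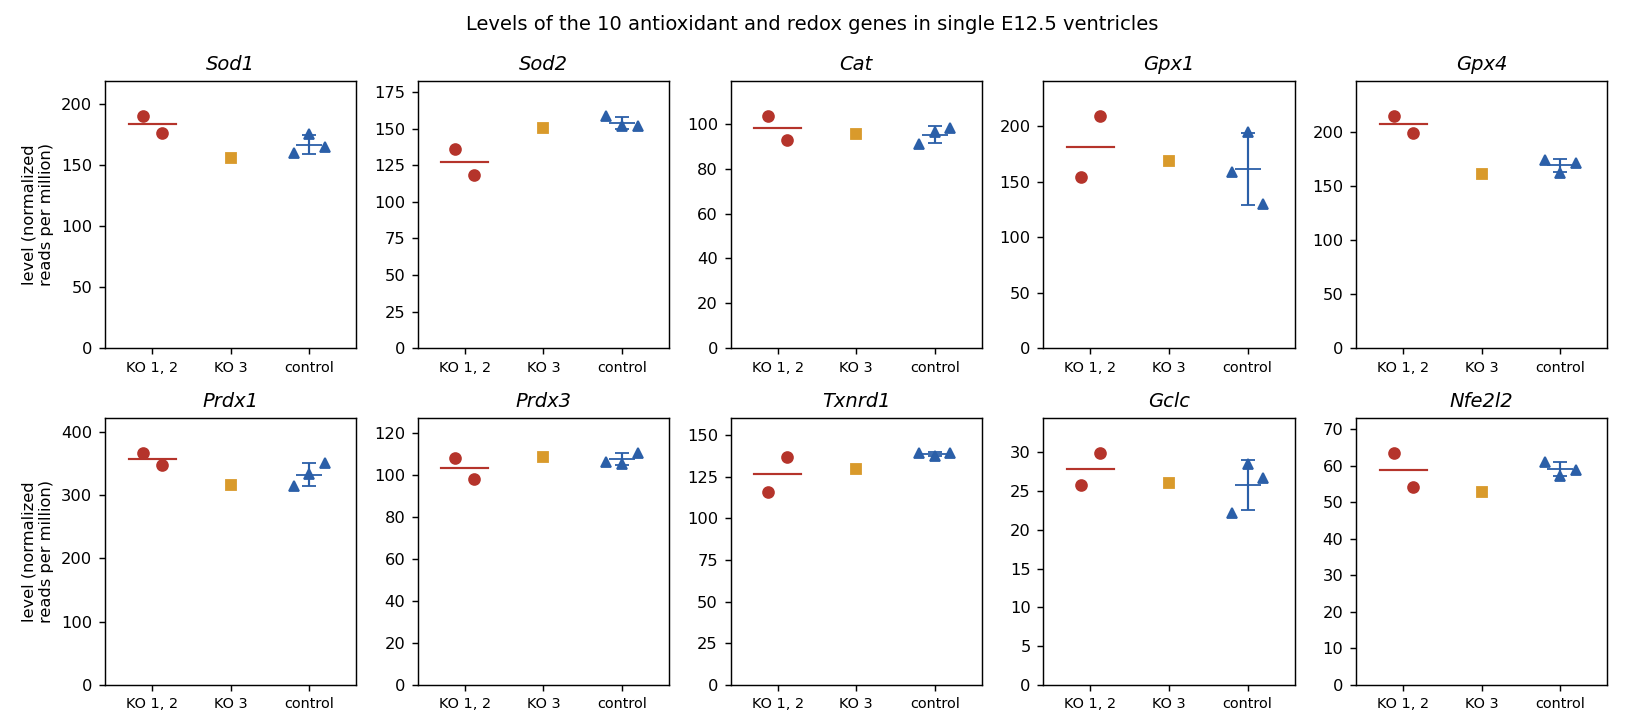
Level of each of the 10 genes (y axis, normalized reads, RPM-like, starting at 0) in knockouts 1 and 2 (circles, line at their mean), in the library labelled knockout 3 (square) and in the 3 controls (triangles, with mean ± SD). Gpx4 and Sod1 have both circles above all triangles and Sod2 and Txnrd1 have both below them, and in the other panels the groups overlap.

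The cytosolic and the mitochondrial superoxide dismutase had fold changes of opposite sign, and neither passed the test. Sod1 (chromosome 16, 90220754 to 90226329 on GRCm38), the cytosolic copper and zinc enzyme, was at 189.9 and 176 in knockouts 1 and 2, at 155 in the library labelled knockout 3, and at 159.5, 175 and 165 in the controls. Knockout 1 was the highest of the 6, knockout 2 was level with control 2, and the gap between those 2 was smaller than the counting error of a library, which reached 2.64% for this gene. The log2 fold change of Sod1 was 0.14 ± 0.07 (SE, limma adjusted p = 0.39), a fold of 1.10 with a 95% interval of 0.977 to 1.24. Sod2 (chromosome 17, 13006846 to 13040063), the manganese enzyme of mitochondria, was at 136 and 118 in knockouts 1 and 2, at 151 in the library labelled knockout 3, and at 159, 152 and 152 in the controls. Both knockouts lay below every control, and the library labelled knockout 3 lay just under the lowest control. The log2 fold change was -0.28 ± 0.08, a fold of 0.825 (0.726 to 0.937), with an unadjusted p of 0.0086 and a limma adjusted p of 0.11, so the difference did not pass over all genes. The Sod2 transcript of 5861 bases shared short stretches with 6 other annotated genes, 5 of them in the table. These stretches were 200 to 210 bases long at 90.4% to 91.7% identity. A part of its reads may thus be shared out, and how many was not tested.

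Catalase, the peroxisomal enzyme encoded by Cat (chromosome 2, 103453849 to 103485160), did not separate the groups. It was at 104 and 92.9 in knockouts 1 and 2, at 95.6 in the library labelled knockout 3, and at 91.0, 96.4 and 98.3 in the controls. Of the 3 controls 2 lay between the knockouts and 1 below both, with a fold of 1.03 and an interval of 0.908 to 1.17 (limma adjusted p = 0.84).

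The glutathione peroxidases, selenoproteins that use glutathione to reduce peroxides, were Gpx1 and Gpx4. Gpx4 (chromosome 10, 80047166 to 80056439) reduces peroxides of membrane lipids and protects cells from ferroptosis. It stood at 215 and 199 in knockouts 1 and 2, at 161 in the library labelled knockout 3, and 175, 162 and 171 in the controls. Both knockouts were above all other libraries, and the library labelled knockout 3 was the lowest of the 6. Its log2 fold change was 0.29 ± 0.07, a fold of 1.22 (1.09 to 1.37), with an unadjusted p of 0.0039 and a limma adjusted p of 0.071. When each knockout was set against its own littermate (litter as a block, litters 1 and 2), the log2 fold change was 0.30 and Gpx4 passed (limma adjusted p = 0.045). That fit had 1 residual degree of freedom and called 8.13% of all genes, 4.92% higher and 3.21% lower. DESeq2 gave it an adjusted p of 0.014, and with 1 library left out in turn the limma adjusted p ran from 0.11 to 0.28. A transcribed copy, Gpx4-ps2, and a processed pseudogene match Gpx4 over at least 200 bases at 90% identity or more, neither is in the table, and their share in these reads was not tested. The summed levels of epicardial, endothelial, fibroblast and atrial markers, given below with their values, were also highest in knockouts 1 and 2.

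Gpx1 (chromosome 9, 108338903 to 108340343), the cytosolic and mitochondrial peroxidase that red blood cells hold in abundance, was the most variable of the 10. It was at 154 and 209 in knockouts 1 and 2, at 169 in the library labelled knockout 3, and at 159, 194 and 130.2 in the controls. The highest and the lowest embryo of the knockout pair both fell near a control, and the spread among controls, 161 ± 32.2 (SD, n = 3), was wider than the difference between groups. The fold was 1.13 with an interval of 0.845 to 1.505 (limma adjusted p = 0.69). In both genotypes the litter 2 embryo was the higher one, by 0.44 in knockouts and 0.29 in controls on the log2 scale. The summed level of 13 erythroid markers, globins among them, varied alike, at 7098.5 and 15646 in knockouts 1 and 2, at 11515 in the library labelled knockout 3, and 12212, 14519 and 6443 in the controls. Over the 6 embryos Gpx1 and this sum had Pearson's r = 0.92 (exact permutation p = 0.014) and Spearman's rho = 0.94 (exact permutation p = 0.017), two-sided. Without the 2 embryos farthest from the median sum, r was 0.95. The relation was noticed in these data among 70 pairs of a gene and a marker list, of which 9 had an unadjusted Pearson p under 0.05. With Benjamini-Hochberg adjustment over the 70 the p-values for Gpx1 were 0.16 and 0.29. For Prdx3 the same erythroid sum gave r = -0.81 (exact permutation p = 0.019, adjusted 0.19) and rho = -0.94 (exact permutation p = 0.017, adjusted 0.29), and r = -0.90 without the 2 farthest embryos. In whole ventricles, fewer cells of a type and less RNA per cell cannot be told apart.

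**Figure D2:**
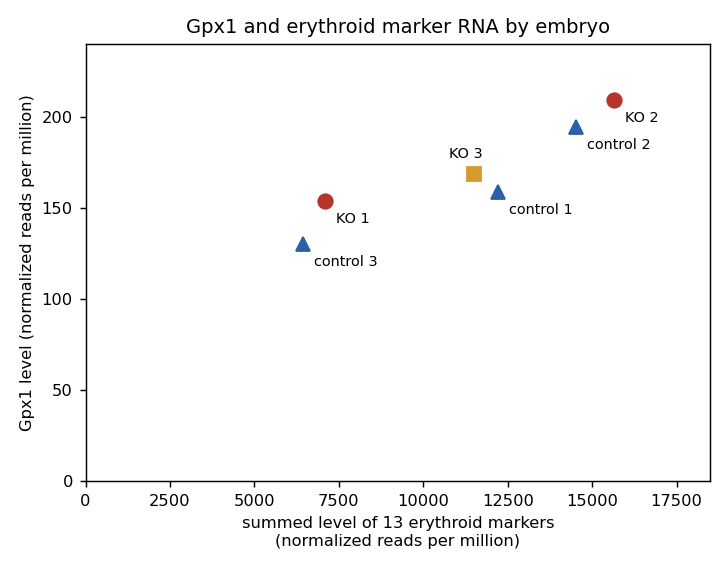
Level of Gpx1 (y axis) against the summed level of 13 erythroid markers (x axis), both in normalized reads, RPM-like, with 1 point per embryo for knockouts 1 and 2 (circles), the library labelled knockout 3 (square) and the controls (triangles). Knockout 2 and control 2 are highest on both axes and control 3 is lowest on both, whatever the genotype.

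Prdx1 and Prdx3 are peroxiredoxins, thiol peroxidases that draw on thioredoxin, and neither passed the test. Prdx1 (chromosome 4, 116685544 to 116700822), the abundant cytosolic form, was at 367 and 347 in knockouts 1 and 2, at 316 in the library labelled knockout 3, and at 314, 333 and 351 in the controls. Knockout 1 was the highest and knockout 2 lay within the controls, for a fold of 1.07 (0.951 to 1.21, limma adjusted p = 0.55). Annotated pseudogenes of Prdx1 (3) and Sod1 (1) match them over at least 200 bases, and none is in the table. Prdx3 (chromosome 19, 60864051 to 60874556), the mitochondrial form, was at 108 and 98.1 in knockouts 1 and 2, at 109 in the library labelled knockout 3, and at 106, 105 and 111 in the controls. Here knockout 2 was the lowest of the 6 and knockout 1 lay among the controls, for a fold of 0.96 (0.853 to 1.08, limma adjusted p = 0.74). Of the 10 genes, Prdx3, Cat, Gpx1 and Nfe2l2 had littermate differences of opposite sign in litters 1 and 2, as 35.5% of all genes had.

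Txnrd1 and Gclc supply the reducing systems and are both known NRF2 targets. Txnrd1 (chromosome 10, 82833951 to 82897712), the cytosolic thioredoxin reductase and a selenoprotein, was at 115.8 and 136.96 in knockouts 1 and 2, at 129.8 in the library labelled knockout 3, and at 139.0, 137.44 and 139.5 in the controls. The controls were nearly identical, knockout 1 was well under them and knockout 2 was level with the lowest, so knockout 1 carries the difference. Its log2 fold change was -0.14 ± 0.08 (limma adjusted p = 0.46), and without knockout 1 it was -0.02. Gclc (chromosome 9, 77754535 to 77794485), the catalytic subunit of the rate-limiting enzyme of glutathione synthesis, was at 25.8 and 30.0 in knockouts 1 and 2, at 26.1 in the library labelled knockout 3, and at 22.2, 28.4 and 26.7 in the controls. It was the lowest of the 10 in level, with 200 to 342 reads per library and a counting error of up to 7.07%. The groups overlapped, with a fold of 1.08 (0.874 to 1.34, limma adjusted p = 0.73), and without knockout 2 or without control 1 the log2 fold change was 0.01.

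Nfe2l2 (chromosome 2, 75675513 to 75704641), the gene of NRF2 itself, stood at 63.6 and 54.2 in knockouts 1 and 2, at 52.8 in the library labelled knockout 3, and at 61.1, 57.2 and 58.9 in the controls. The knockouts lay on either side of the controls, with a log2 fold change of -0.01 ± 0.09 and a fold interval of 0.86 to 1.1499 (limma adjusted p = 0.98). NRF2 is controlled mainly through the stability of the protein, which RNA levels do not measure.

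**Figure D3:**
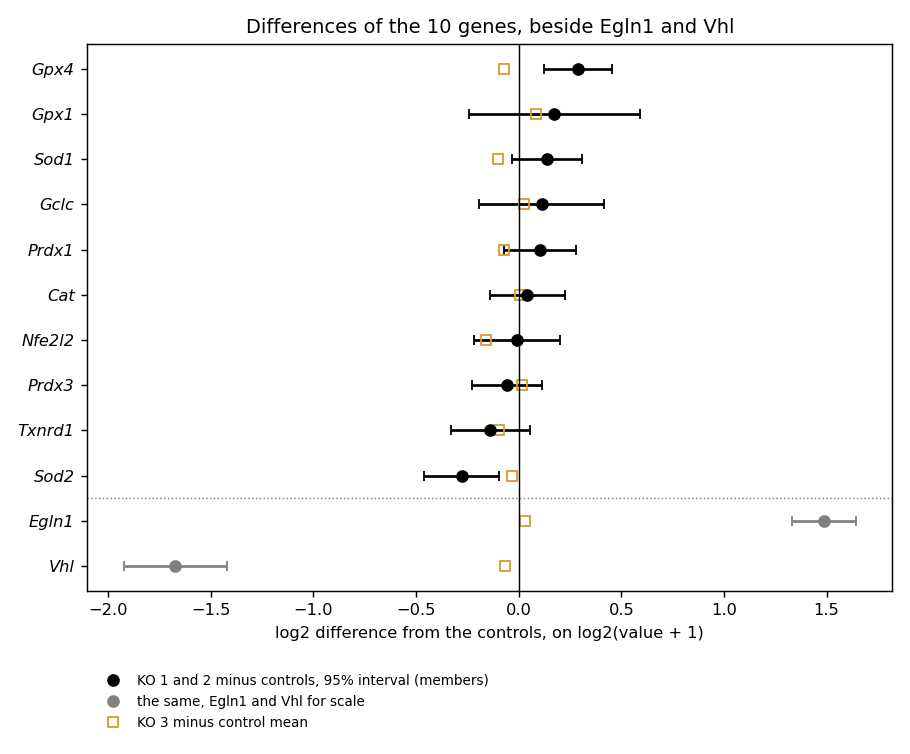
Log2 difference from the controls (x axis, on log2(value + 1)) for the 10 genes, with Egln1 and Vhl for scale. Circles with bars give knockouts 1 and 2 minus the 3 controls with 95% intervals from limma, and open squares give the library labelled knockout 3 minus the control mean. The 10 genes lie between -0.28 (Sod2) and 0.29 (Gpx4), while Egln1 is at 1.49 and Vhl at -1.67.

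Against the size of the HIF response in the same embryos these differences were small. Egln1 had a log2 fold change of 1.49 ± 0.07, and the upper ends of the 95% intervals of the 10 genes ran up to a fold of 1.505, that of Gpx1. In the library labelled knockout 3, 5 of the 10 genes lay within the range of the controls, 5 lay below it and 0 above it, beside 43.9% of all genes outside the range. The 5 below were Sod1, Sod2, Gpx4, Txnrd1 and Nfe2l2, and the widest of these gaps was that of Nfe2l2, at 0.894 of the control mean. Gpx4 and Sod1, which were higher in knockouts 1 and 2, were thus among the lower values in this library.

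Levels between genes were compared per kilobase of the longest APPRIS principal transcript. In order of the control means, Sod1 was the highest, at 296 and 275 per kilobase in knockouts 1 and 2 and 259 ± 12.2 (SD, n = 3) in controls. Next came Gpx4 (224 and 208 in knockouts 1 and 2, 177 ± 6.47 in controls), Gpx1 (143 and 195, 150.3 ± 30.1) and Prdx1 (160.2 and 151, 145 ± 8.01). The range of Gpx1 in controls, 121 to 181, overlapped those of Gpx4 and Prdx1, so these neighbours do not differ beyond their spread. Prdx3 followed (73.1 and 66.4 in knockouts 1 and 2, 72.6 ± 1.95 in controls), then Txnrd1 (32.8 and 38.8, 39.3 ± 0.305) and Cat (39.6 and 35.5, 36.4 ± 1.45). Sod2 (23.2 and 20.2, 26.3 ± 0.696), Nfe2l2 (25.7 and 21.9, 23.9 ± 0.791) and Gclc (7.53 and 8.75, 7.54 ± 0.945) closed the order, and Gclc was last in each control and in knockouts 1 and 2. Within a knockout some neighbours stood the other way round, with Nfe2l2 above Sod2 in both, and Cat above Txnrd1 and Prdx1 above Gpx1 in knockout 1. The order depends on the length used: per kilobase of all annotated exons joined, Sod1 ranked 5 of 10, at 41.9 ± 1.97 in controls, and Gpx1 first, at 112 ± 22.4.

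Beyond the 10 genes, 13 lists of redox genes named 167 further genes, of which 141 were measured. In knockouts 1 and 2, 11 of the 141 rose and 1 fell, 8.51% against 4.25% of all genes, and 129 did not pass. Their median log2 fold change was 0.04, against -0.01 over all genes. With all 6 libraries as labelled 0 of the 141 passed by limma, 12 had an unadjusted p under 0.05, and edgeR and DESeq2 also called 0. Between littermates 17 rose and 5 fell, 15.6% of the 141 against 8.13% of all genes in that fit. The lists share members, and several of the genes were known to have changed in these data when the lists were chosen.

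**Figure D4:**
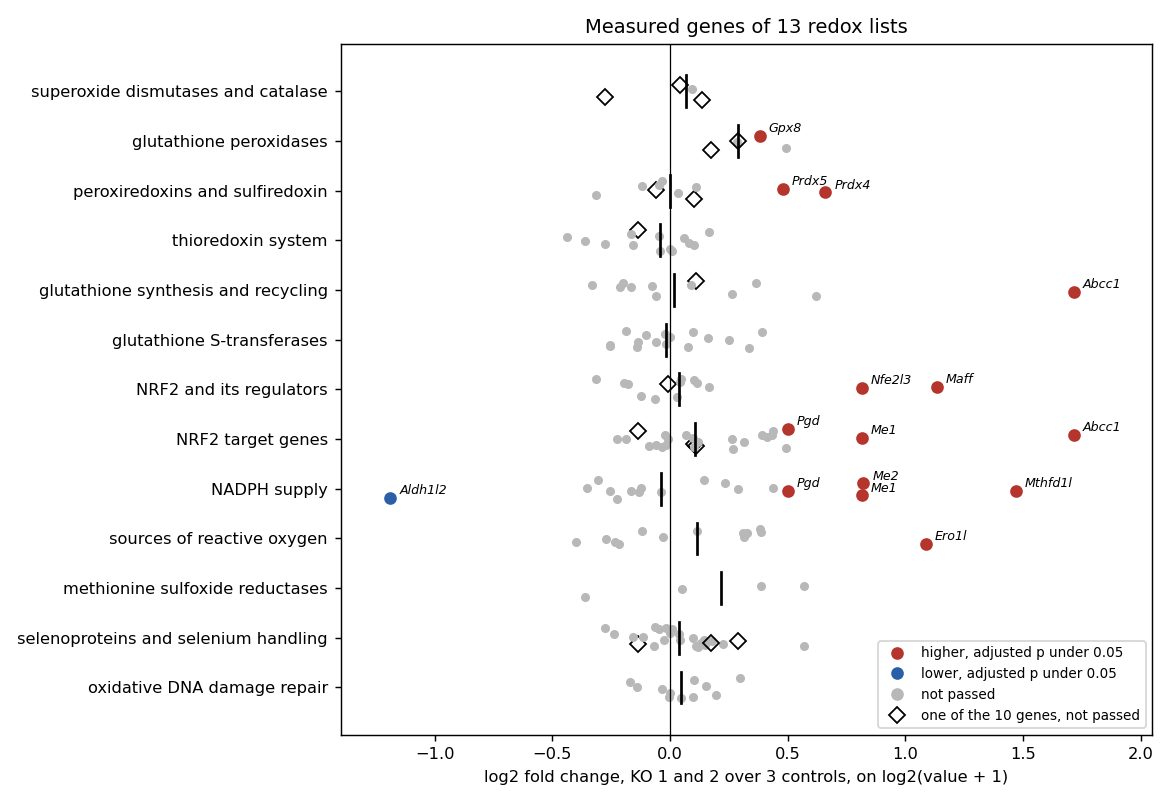
Log2 fold change of knockouts 1 and 2 over the 3 controls (x axis, on log2(value + 1)) for the measured genes of 13 redox lists (y axis), with bars at list medians and open diamonds for the 10 genes. Filled coloured points passed the threshold, and a gene in several lists is drawn in each. Most points crowd around 0, and Aldh1l2 is the 1 gene left of 0 that passed.

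Among those that rose were Prdx4 and Gpx8, peroxidases of the secretory pathway. Prdx4 (chromosome X, 155323918 to 155340754), the peroxiredoxin of the endoplasmic reticulum, was at 172 and 141 in knockouts 1 and 2, at 107 in the library labelled knockout 3, and at 104, 94.6 and 96.6 in the controls. Both knockouts were far above the rest, with a log2 fold change of 0.66 ± 0.10 (limma adjusted p = 0.0099). That call was lost without control 2 or without knockout 1, where the adjusted p reached 0.058. Gpx8 (chromosome 13, 113042753 to 113046410), a glutathione peroxidase relative anchored in the membrane of the same compartment, was at 70.1 and 67.1 in knockouts 1 and 2, at 47.8 in the library labelled knockout 3, and 51.1, 51.9 and 54.4 in the controls. On the log2 scale it rose by 0.38 ± 0.08 (limma adjusted p = 0.034), a call lost in each of the 5 fits that left out 1 library (adjusted p 0.069 to 0.17). Ero1l, the oxidase that makes hydrogen peroxide while it forms disulfide bonds there and a known HIF target, was at 238 and 215 in knockouts 1 and 2, at 108 in the library labelled knockout 3, and 105, 107 and 105 in the controls. Its log2 rise of 1.09 ± 0.07 (limma adjusted p = 0.00025) held in all 5 of those fits. Prdx5, a peroxiredoxin of mitochondria, peroxisomes and cytosol, was at 92.6 and 77.99 in knockouts 1 and 2, at 55.3 in the library labelled knockout 3, and 65.6, 58.7 and 58.0 in the controls. On the log2 scale it rose by 0.48 ± 0.10 (limma adjusted p = 0.040), and the call was lost without control 2, control 3 or knockout 1 (adjusted p up to 0.21).

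All 5 measured glutathione peroxidases had log2 fold changes above 0, as 6670 of all 13843 genes had, with a median of 0.29. Gpx8 was the 1 that passed, 20% against 4.25% of all genes (between littermates 3 did, 60% against 8.13%). Without knockout 2 the log2 fold change of Gpx1 was -0.05. The secreted Gpx3, at 921 and 884 in knockouts 1 and 2 and 710, 771 and 743 in controls, had a limma adjusted p of 0.10. Gpx7 had one of 0.080 (38.2 and 29.4 in knockouts 1 and 2, 22.7, 24.2 and 23.7 in controls). In the library labelled knockout 3, Gpx3 was at 824, also above all controls, and Gpx7 was at 19.4, below them. Of 10 genes in the peroxiredoxin list 2 rose, 0 fell and 8 did not pass, 20% called against 4.25% of all genes, with a median of 0.00. The abundant cytosolic Prdx2 (391 and 389.9 in knockouts 1 and 2, 382 ± 9.80 in controls) and Prdx6 (157 and 163, 165 ± 6.94), a peroxidase of oxidized phospholipids, overlapped the controls. In the thioredoxin list 0 of 14 passed by limma, with 2 at an unadjusted p under 0.05 and a median of -0.04. Its smallest adjusted p values were those of the glutaredoxin Glrx (log2 fold change -0.36 ± 0.08, limma adjusted p = 0.057, edgeR adjusted p = 0.047) and of Txnip, which binds and inhibits thioredoxin (238 and 208 in knockouts 1 and 2, 277, 295 and 336 in controls, limma adjusted p = 0.058). Between littermates Txnip fell (limma adjusted p = 0.031).

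The NRF2 target list holds genes known to be induced by NRF2. Of its 26 measured members 3 rose, 0 fell and 23 did not pass, 11.5% called against 4.25% of all genes, and the median was 0.11. Of the 26, 8 had an unadjusted p under 0.05 by limma, beside 17.8% of all genes. Knockouts 1 and 2 lay above all controls for 9 and below all controls for 3, beside 18.1% and 17.0% of all genes. Between littermates 7 rose and 0 fell, 26.9% against 8.13% of all genes. Several members also belong to other routes, and the 3 that rose were Abcc1, Pgd and Me1. Abcc1, an exporter of glutathione conjugates, was at 21.3 and 18.4 in knockouts 1 and 2, at 5.40 in the library labelled knockout 3, and 4.55, 5.79 and 5.77 in the controls, a log2 fold change of 1.71 ± 0.16 (limma adjusted p = 0.0012). Pgd, of the pentose phosphate pathway, was at 128 and 129 in knockouts 1 and 2, at 89.0 in the library labelled knockout 3, and 93.5, 91.2 and 87.3 in the controls (0.50 ± 0.07, limma adjusted p = 0.0074). Without knockout 1 the adjusted p of Pgd was 0.056. Me1, the cytosolic malic enzyme, was at 137 and 97.1 in knockouts 1 and 2, at 56.2 in the library labelled knockout 3, and 69.3, 62.9 and 63.2 in the controls (0.81 ± 0.14, limma adjusted p = 0.018), a call lost without knockout 1, control 2 or control 3 (adjusted p up to 0.081). G6pdx, Tkt, Ugdh and Gsr also lay above all controls in knockouts 1 and 2, but not in the library labelled knockout 3. They did not pass (limma adjusted p = 0.11, 0.13, 0.15 and 0.20). Of the genes often used as marks of NRF2 activity, Nqo1, Gclm and Srxn1 did not pass. Nqo1, a quinone reductase, was near the floor of the table, at 1.54 and 3.42 in knockouts 1 and 2 and 1.78, 2.601 and 0.944 in controls. Gclm, the modifier subunit that pairs with Gclc, was at 39.2 and 52.1 in knockouts 1 and 2 and 45.4, 54.8 and 42.1 in controls, and Srxn1, which repairs overoxidized peroxiredoxins, at 8.97 and 10.95 in knockouts 1 and 2 and 10.7, 10.8 and 9.13 in controls. Both pairs overlapped the controls. Heme oxygenase 1, Hmox1, known to answer to both NRF2 and HIF, was above all controls at 18.8 and 18.5 in knockouts 1 and 2, against 12.8, 11.9 and 14.3 in controls and 9.80 in the library labelled knockout 3, with a limma adjusted p of 0.078 and, between littermates, 0.031.

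Among 14 genes of NRF2 and its regulators 2 rose, 0 fell and 12 did not pass, 14.3% called against 4.25% of all genes. Nfe2l3, a relative of NRF2, was at 12.2 and 13.5 in knockouts 1 and 2, at 6.41 in the library labelled knockout 3, and 6.99, 7.13 and 6.50 in the controls (log2 fold change 0.81 ± 0.14, limma adjusted p = 0.020). Maff, a small MAF protein that pairs with NRF2 on DNA, was at 12.04 and 13.6 in knockouts 1 and 2, at 5.95 in the library labelled knockout 3, and 4.10, 7.80 and 4.51 in the controls (1.13 ± 0.25, limma adjusted p = 0.047). Each of these 2 calls was lost in 4 of the 5 fits that left out 1 library, and stood for Nfe2l3 without control 1 and for Maff without control 2. Their adjusted p reached 0.12 for Nfe2l3 and 0.19 for Maff. Keap1, which holds NRF2 down, was at 48.98 and 50.1 in knockouts 1 and 2 and 47.04, 46.99 and 44.2 in controls (limma adjusted p = 0.57). Bach1, a repressor at the same elements, overlapped between groups (limma adjusted p = 0.88). Its relative Bach2 was at 29.7 and 34.3 in knockouts 1 and 2, and 41.8, 40.7 and 37.4 in the controls. Bach2 was at 33.9 in the library labelled knockout 3 and did not pass (limma adjusted p = 0.15). Knockouts 1 and 2 lay above all controls for 5 of the 14 genes and below for 4, beside 18.1% and 17.0% of all genes.

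In the list drawn up for NADPH supply, 4 of 17 genes rose, 1 fell and 12 did not pass, 29.4% called against 4.25% of all genes. Between littermates 5 rose and 4 fell, 52.9% against 8.13% of all genes. Of the 4 that rose, Pgd and Me1 encode enzymes that make NADPH, whereas Mthfd1l and Me2 do not clearly belong under that name. Mthfd1l, a mitochondrial ligase of formate and tetrahydrofolate that makes no NADPH itself, was at 114 and 102 in knockouts 1 and 2, at 35.4 in the library labelled knockout 3, and 40.9, 35.9 and 38.5 in the controls (log2 fold change 1.47 ± 0.09, limma adjusted p = 0.00023). Me2, the mitochondrial malic enzyme, which works mainly with NAD, was at 63.6 and 64.2 in knockouts 1 and 2, at 36.1 in the library labelled knockout 3, and 33.9, 38.7 and 34.7 in the controls (0.82 ± 0.09, limma adjusted p = 0.0024). Aldh1l2, which yields NADPH in mitochondria as it oxidizes formyl folate, fell to 29.7 and 29.0 in knockouts 1 and 2, against 73.2, 57.4 and 75.6 in the controls and 64.6 in the library labelled knockout 3 (log2 fold change -1.19 ± 0.12, limma adjusted p = 0.0021). Of 13 measured genes of sources of reactive oxygen 1 rose, Ero1l, 7.69% against 4.25% of all genes. The NADPH oxidase Nox4 overlapped between groups at 10.7 and 6.92 in knockouts 1 and 2 and 6.10, 5.62 and 8.81 in controls. The list medians were -0.04 for NADPH supply and 0.11 for sources of reactive oxygen.

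**Figure D5:**
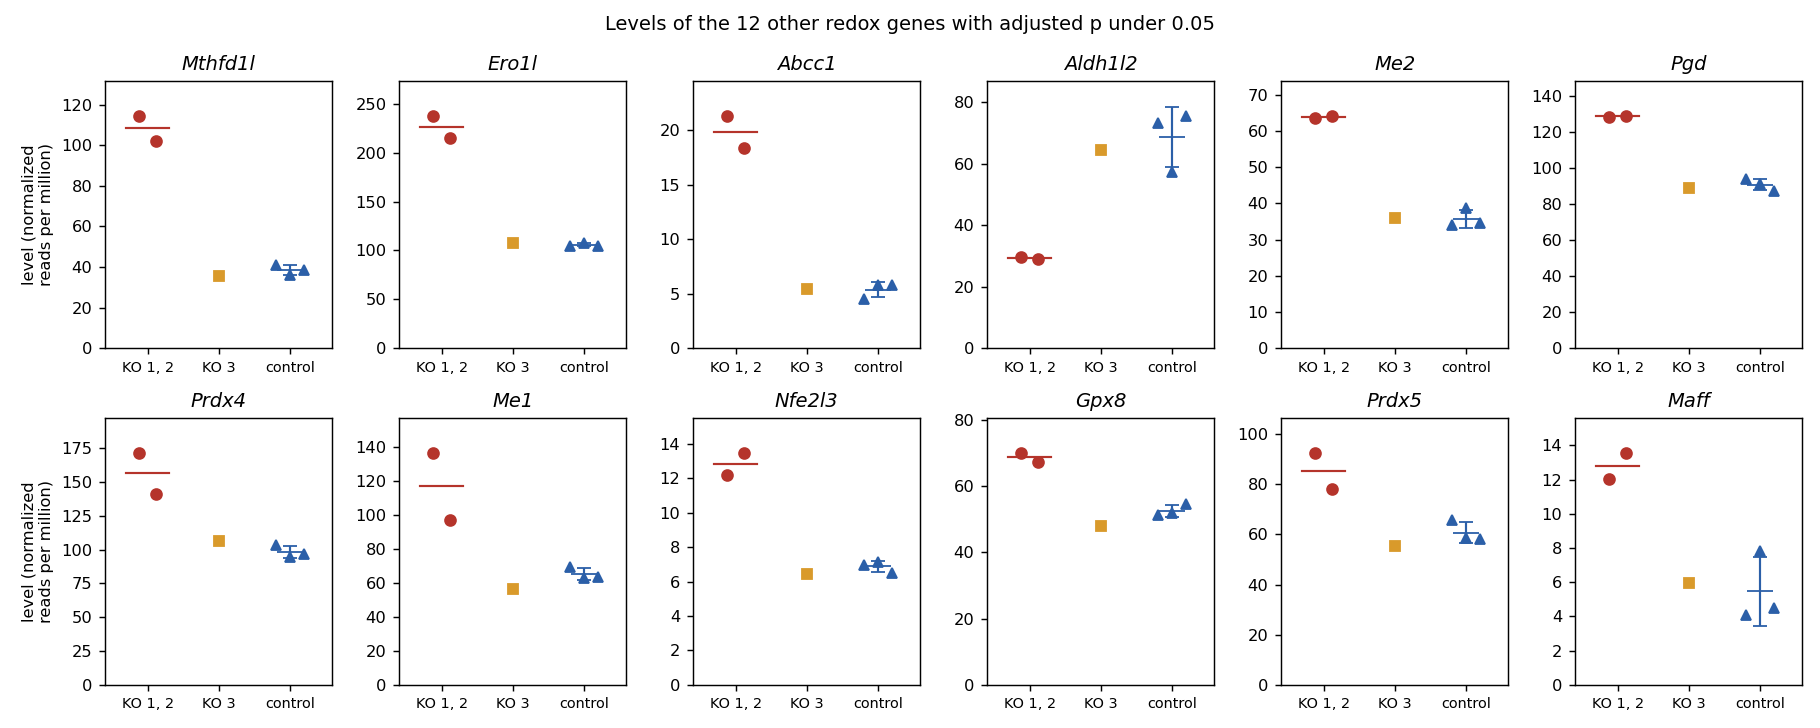
Level of the 12 other redox genes that passed the threshold (y axis, normalized reads, RPM-like, starting at 0) in knockouts 1 and 2 (circles, line at their mean), the library labelled knockout 3 (square) and the 3 controls (triangles, mean ± SD). In 11 panels both circles are above all triangles, in that of Aldh1l2 both are below, and the square lies near the triangles in all 12.

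Summed levels of several marker lists also differed in this comparison, where 3.01% of all genes rose (4.92% between littermates). The list named atrial is among them. Controls, from which atria had also been removed, had high sums for it too, so its name does not place these transcripts in atrial cells. Which cells they came from was not tested. The summed level of 8 epicardial markers stood at 515 and 462 in knockouts 1 and 2, at 339 in the library labelled knockout 3, and 350.1, 288 and 387 in the controls, and 2 of 8 rose (6 between littermates). For 10 endothelial and endocardial markers it stood at 1898 and 1925 in knockouts 1 and 2, at 1583 in the library labelled knockout 3 and 1653 to 1731 in the controls, and 2 of 10 rose. For 10 fibroblast and smooth muscle markers it stood at 3907 and 3261.5 in knockouts 1 and 2, at 1835 in the library labelled knockout 3 and 1890.3 to 2729 in the controls, and 2 of 10 rose (4 between littermates). Of 6 measured atrial markers 1 rose (between littermates 1 rose and 1 fell), with sums at 7664 and 6193.5 in knockouts 1 and 2, at 4082 in the library labelled knockout 3 and 4839 to 5755 in the controls. Macrophage markers, 0 of 9 passing, stood in sum at 89.9 and 81.1 in knockouts 1 and 2, at 102 in the library labelled knockout 3 and 76.6 to 113 in the controls, and 0 of 13 erythroid and 0 of 10 heart muscle markers passed. Between littermates 1 erythroid and 1 heart muscle marker fell. The heart muscle markers had a median log2 fold change of -0.21, with 7 of 10 below 0. No measured marker was at 0 in all libraries. Over the 6 embryos Sod1 and the fibroblast and smooth muscle sum had r = 0.94 (exact permutation p = 0.0069, adjusted over the 70 pairs 0.15) and rho = 0.94 (exact permutation p = 0.017, adjusted 0.29), with r = 0.80 without the 2 farthest embryos. For Prdx1 and that sum r was 0.95 (exact permutation p = 0.0083, adjusted 0.15) and rho 0.89 (exact permutation p = 0.033, adjusted 0.33), with r = 0.88 without the 2 farthest. Sod1 and the atrial sum had r = 0.82 (exact permutation p = 0.036, adjusted 0.28) and rho = 0.83 (exact permutation p = 0.058, adjusted 0.45), and r = 0.12 without the 2 farthest, so that relation rests on those embryos. Gpx4 had an unadjusted Pearson p under 0.05 with 4 of the 7 sums, the epicardial, endothelial, fibroblast and atrial ones. Its values and those sums were all highest in knockouts 1 and 2, so for Gpx4 the sums and the genotype cannot be told apart over these 6 embryos. The same holds for Sod1 with the fibroblast and atrial sums, though for Sod1 knockout 2 was level with control 2. No relation of the 70 had an adjusted p under 0.05. For Prdx4, Gpx8 and the other genes outside the 10, the relation to these sums was not tested.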

How the data were processed

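RNA of 6 single embryonic ventricles was sequenced (500 ng of total RNA per TruSeq library, single reads of 75 bp, per the labels' protocols). The authors used CASAVA 1.8.2, cutadapt 1.3 and RSEM 1.2.3 with GRCm38, per the submitters' processing notes. Their annotation release, filter and scaling are not given in the sources used here. Per gene and library, the deposited table holds 1 normalized signal, and 3 or more libraries reach a value of 1 for every gene. In each column 100% of values were whole multiples of 1 step (tolerance 0.01 reads), so reads were recovered for edgeR (407 genes higher and 163 lower) and DESeq2. The design had allowed for counts and named limma for normalized values. RSEM can divide reads with several matching loci, whereas the values here were whole reads. Whether divided reads had been rounded was not tested. The kit named in the labels does not mark strand. GENCODE M21 on GRCm38 named 13681 of 13843 genes.

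Knockouts 1 and 2 were set against 3 controls on log2(value + 1), which understates changes of low genes, by limma 3.58.1 (trend on, R 4.3.3). Alternatives used edgeR 4.0.16, DESeq2 1.42.0, other pseudocounts, filters, scalings and samples. The members and gene lists were chosen with earlier results of these data known. Genes could be named if they were members, Vhl or Egln1, past the threshold, or among the 4 smallest p of a redox list. Other genes (Keap1, Bach1, Nqo1, Gclm, Srxn1, Prdx2, Prdx6, Nox4, G6pdx, Tkt and Ugdh) were picked after their values were seen. The method was tested on simulated data. Intervals on reads are counting error only, from the square root of the reads. Litters pair knockouts 1 and 2 with controls 1 and 2, per the labels, while knockout 3 (litter 4) and control 3 (litter 3) have no littermate; the series' design text speaks of 3 litters. Deviations from group means correlated at 0.32 within litter 1 and 0.24 within litter 2, over genes.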

Additional observations from a re-analysis of the deposited data

How the results depend on the processing

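Of 180 values of the 10 genes under 18 alternatives, 172 kept their direction and side of the threshold, 3 passed it and 5 changed sign. Gpx4 passed with litter as a replicate block, for litters 1 and 2 or all 6 libraries (log2 fold change 0.30 in both). It also passed by DESeq2 (0.29), so the members higher were 1 in each. Knockout 3 and control 3 are each the sole library of a litter, so both blocks compare the same littermates. Of the 3 values that passed, 2 thus rest on 1 comparison, which knockout 3 does not enter. Without the block, all 6 libraries gave Gpx4 a log2 fold change of 0.17 (limma adjusted p = 0.82). The sign changes came with 1 library left out, where Cat ran from -0.035 (without knockout 1) to 0.12, Gpx1 from -0.048 (without knockout 2) to 0.39, Nfe2l2 from -0.12 to 0.10 and Prdx3 from -0.13 to 0.0094 (without knockout 2). The cause was not tested. Over all genes (416 higher, 172 lower), the counts were 0 and 0 with all 6 libraries, also by edgeR there, 7 and 4 by DESeq2 there, 235 and 82 without trend, 681 and 444 with the replicate block for litters 1 and 2, 669 and 459 with it for all 6 libraries, and 274 lower by DESeq2. With 1 library left out they ran from 146 to 297 and from 44 to 90, both lowest without knockout 1. Of the 141 wider genes (11 higher, 1 lower), 0 and 0 passed with all 6 libraries by any of the 3 tools, 17 and 5 with either replicate block, and 5 were higher without trend. The number lower was 3 by DESeq2 and 2 by edgeR, with equal totals or with a mean of at least 5, and 4 to 9 were higher with 1 library left out. Where 1 knockout remained, it was taken to vary as much as the controls do. The block changed no other call among the 10. The all-sample fits by edgeR and DESeq2 were added after seeing the data. Rescaling moved the median of all genes by under 0.1 (log2), to -0.02 at most. With 2 knockouts, the intervals of Gpx1 and Gclc stay wide.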

Other observations

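In the lists that follow 0 genes passed by limma. Over all genes, 17.8% had an unadjusted p under 0.05, and 4.92% rose between littermates. Of 16 measured glutathione S-transferases 0 passed by limma, 2 had an unadjusted p under 0.05 and the median log2 fold change was -0.02. The smallest p was that of Gsto1, at 25.6 and 24.8 in knockouts 1 and 2 and 29.95, 31.0 and 29.9 in controls (limma adjusted p = 0.19). In the library labelled knockout 3 Gsto1 was at 34.6, above all controls. Of 25 selenoproteins and genes of selenium handling, which include Gpx1, Gpx4 and Txnrd1, 0 passed by limma and 3 had an unadjusted p under 0.05, with a median of 0.04 (2 rose between littermates). All 4 methionine sulfoxide reductases, which repair oxidized methionine, were measured, 0 passed by limma and 3 had an unadjusted p under 0.05 (1 rose between littermates). Knockouts 1 and 2 lay above all controls for 3 of the 4 and below for 1, beside 18.1% and 17.0% of all genes. The library labelled knockout 3 was also above all controls for Msra (21.4 against 17.8 to 19.5) and Msrb3 (119.6 against 115.9 to 116.5). For Msrb1 and Msrb2 it lay within them. For Msrb3 the lower knockout, at 117.8, was close to the highest control, with a counting error of up to 3.09%. Msrb1, the selenoprotein among them, was at 16.4 and 15.6 in knockouts 1 and 2 and 8.43, 11.999 and 11.2 in controls (limma adjusted p = 0.12). The mitochondrial Msrb2 was at 16.8 and 17.5 in knockouts 1 and 2 and 21.5, 21.1 and 24.5 in controls (limma adjusted p = 0.14). Of 11 genes that repair oxidized DNA 0 passed by limma, and 0 had an unadjusted p under 0.05.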
